A study of Mus musculus with 3 samples.

Results

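Gene deserts are long stretches of the genome without protein-coding genes. ATAC-seq tags accessible DNA with a transposase and marks candidate cis-regulatory elements (CREs) there as peaks, and some such elements are known to act on distant genes, as do the distal enhancers of Sox2 and Myc in mouse pluripotent cells. SOX2 is an HMG-box transcription factor that binds DNA together with OCT4 in pluripotent cells and keeps a role in neural and caudal epiblast progenitors. The regions described here were taken from the broad peak lists of 3 mouse libraries. Peaks on 16 autosomes (chromosomes 1 to 19 without 6, 8 and 11) were merged across the lists, and a merged region was kept as a gene desert region when it overlapped no protein-coding gene body, lay over 100 kb from the nearest protein-coding transcript start and lay over 5 kb from every lincRNA or antisense start in GENCODE M21 (genome build mm10). This gave 17077 gene desert regions of 144115 merged regions.

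The libraries came from cells derived from HM1 TetON, a male mouse embryonic stem cell line of 129 background, and each group was 1 library of 50000 cells with no replicate. CEpiLC were wild type caudal epiblast-like cells. SOX2-ON and SOX2-OFF were both made from the SOX2 TetON line, a single clone in which both copies of endogenous Sox2 were disrupted and a doxycycline-inducible Sox2 transgene sat in the Hprt locus, with the rtTA activator expressed from Rosa26. SOX2 TetON embryonic stem cells were kept on feeders with 1 µg/ml doxycycline. During differentiation doxycycline was maintained in SOX2-ON, which left the transgene on, and withdrawn in SOX2-OFF, which turned it off. The labels give no doxycycline treatment for CEpiLC. All 3 groups received 10 ng/ml bFGF and 5 µM of the Porcupine inhibitor LGK974 for 2 days, with the WNT pathway agonist CHIR99021 added for the final day, and were harvested at 72 h. Clone, genotype, doxycycline treatment and library cannot be told apart in a comparison of CEpiLC with SOX2-ON or SOX2-OFF. Transgene, doxycycline itself and library cannot be told apart in a comparison of SOX2-ON with SOX2-OFF.

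The SOX2-ON list held 129843 peaks, the SOX2-OFF list 131520 and the CEpiLC list 130348, of which 85388, 86563 and 95025 lay on the autosomes used. The read depth of the libraries was not given in the sources used here. In the same order the smallest peak measured 162, 196 and 149 bp, and the −log10 p value at rank 20000 of a list was 17.1, 14.2 and 7.99, so strengths are given as percentile ranks within a list and a missing peak means only that none was detectable at that library's depth. Every list had a peak within 1 kb of a start of 5 of 5 epiblast markers, 6 of 6 caudal epiblast markers, 5 of 5 naive pluripotency markers, 4 of 4 mesoderm and endoderm markers and 5 of 6 feeder fibroblast markers, Col3a1 being the exception. The presence of promoter peaks therefore did not separate the cell types, whereas their strength could differ. The peak at Msgn1, a presomitic mesoderm gene, lay at the 12.6th percentile in SOX2-ON against 85.7 in SOX2-OFF and 82.2 in CEpiLC. The other mesoderm and endoderm markers differed far less. For SOX2-ON, SOX2-OFF and CEpiLC in turn, Tbx6 stood at 82.8, 83.4 and 79.2. Foxa2 stood at 89.0, 93.3 and 93.5, and Sox17 at 92.2, 93.9 and 95.7.

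Several sequences recur in the sections that follow. The first 3 are 25-base words, each the most frequent word other than a simple repeat in a set of gene desert regions: regions with peaks in both SOX2 TetON libraries and none in CEpiLC (first word), regions shifted toward SOX2-ON (second word) and regions shifted toward SOX2-OFF (last word). They were picked after the values were seen, and their letters are those of one strand, 5′ to 3′. Capitals in the second word mark a match to the OCT-SOX composite motif (TTGTNATGC), and capitals in the last word a match to a TCF/LEF motif (CTTTGAT).
First word: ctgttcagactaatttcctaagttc
Second word: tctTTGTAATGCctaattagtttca
Last word: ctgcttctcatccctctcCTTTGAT
The strongest gene desert region found in SOX2-ON alone (near Fam98a, chr17:76500291-76500490, plus strand) is shown because it holds the second word, with its OCT-SOX match in capitals.
Fam98a: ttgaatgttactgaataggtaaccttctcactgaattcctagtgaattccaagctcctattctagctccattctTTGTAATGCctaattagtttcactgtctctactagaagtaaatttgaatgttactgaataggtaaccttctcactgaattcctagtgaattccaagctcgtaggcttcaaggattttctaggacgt
The centres of 2 regions downstream of Sox2 are shown because both had a peak in every list (chr3:34761224-34761423 and chr3:34795612-34795811, plus strand). Neither holds a SOX, OCT-SOX, OCT, CTCF, GATA, FOX or TCF/LEF match, and the first holds a T-box match and the second a KLF match, which are not in capitals.
Sox2 at 111 kb: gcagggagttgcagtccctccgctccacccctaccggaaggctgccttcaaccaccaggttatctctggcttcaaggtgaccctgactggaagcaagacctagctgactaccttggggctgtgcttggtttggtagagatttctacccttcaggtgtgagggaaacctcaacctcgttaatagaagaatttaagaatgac
Sox2 at 145 kb: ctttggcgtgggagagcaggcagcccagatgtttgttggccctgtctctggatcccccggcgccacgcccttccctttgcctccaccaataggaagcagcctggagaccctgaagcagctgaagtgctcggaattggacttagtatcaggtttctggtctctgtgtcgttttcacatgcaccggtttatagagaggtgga
The centre of the strongest CEpiLC-only region in the interval between Irx1 and Irx2 (chr13:72210224-72210423, plus strand) has a SOX motif (CATTGTT) in capitals. It also holds a CDX match (GCCATAAA), which is not in capitals.
Irx1: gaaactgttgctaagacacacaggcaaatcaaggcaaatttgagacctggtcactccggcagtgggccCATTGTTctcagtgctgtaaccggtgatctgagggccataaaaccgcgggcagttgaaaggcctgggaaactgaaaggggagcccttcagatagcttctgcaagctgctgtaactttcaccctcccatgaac

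The first question was how many regions the deserts held for their size. The desert rule covered 609 Mb, or 30.4% of the sequence of the 16 autosomes, and this sequence held 11.8% of the merged regions, at 28.0 regions per Mb against 91.0 per Mb in the rest. Outside coding gene bodies, the density fell with distance from a coding start, from 99.8 regions per Mb at 5 to 20 kb to 42.9 at 100 to 200 kb, 27.9 at 200 to 500 kb, 16.2 at 500 to 1000 kb and 13.9 beyond 1000 kb. The order of the lists changed along the way. At 5 to 20 kb, SOX2-ON had the fewest regions per Mb (56.7) and CEpiLC the most (66.9), with SOX2-OFF between them (60.8). Beyond 1000 kb, SOX2-ON had the most (7.69) and CEpiLC the fewest (6.45), with SOX2-OFF again between them (7.04). Among the strongest 20000 peaks of each list the spread was wider, with 1.56, 1.13 and 0.527 regions per Mb beyond 1000 kb in SOX2-ON, SOX2-OFF and CEpiLC, from 98, 71 and 33 regions.

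**Figure D1:**
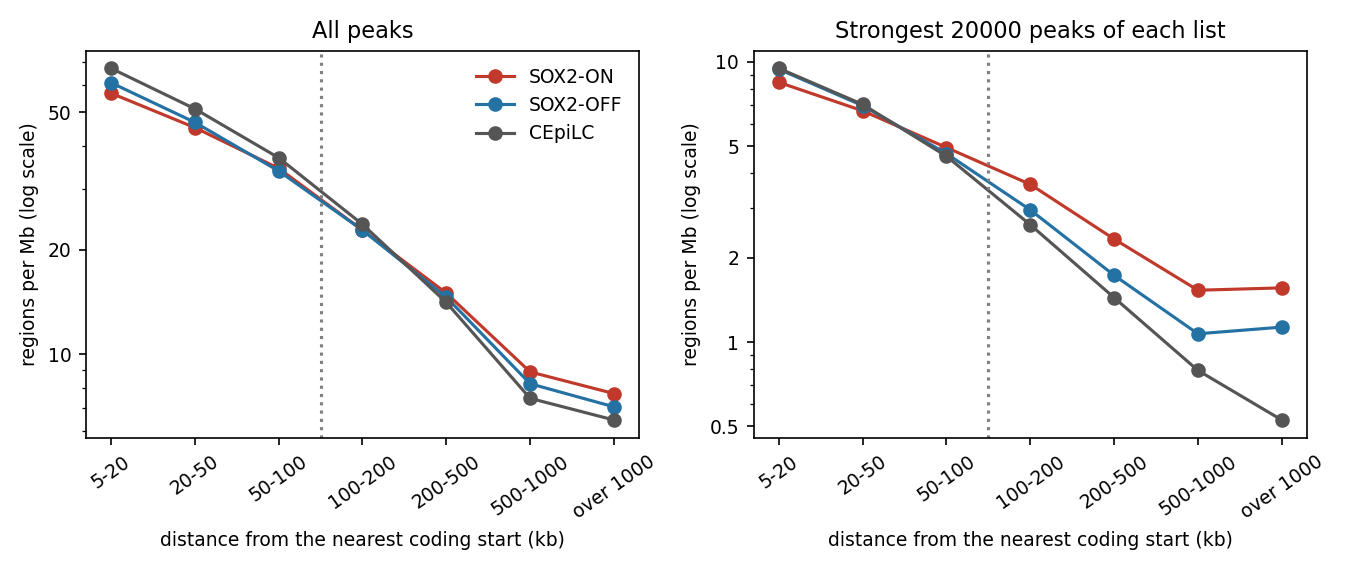
Regions per Mb (log scale) against distance from the nearest coding start in kb, for all peaks (left) and for the strongest 20000 peaks of each list (right), with 1 line per library and no replicates; the dotted line marks 100 kb. The SOX2-ON line starts lowest at 5 to 20 kb and is highest beyond 200 kb in both panels.

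The gene desert regions lay a median of 230 kb from the nearest coding start, with quartiles at 148 and 403 kb, and 868 of them lay over 1000 kb away. The farthest, 2703 kb from the start of Pcdh20 (a protocadherin gene), was a 61.1% GC region between Pcdh20 and Pcdh9 with peaks in SOX2-ON and SOX2-OFF. The member closest to the limit lay 100013 bp from Zfp648, and the region just outside it 99988 bp from Zfp97. Regions were clustered, with 57.4% lying within 10 kb of another and a median gap of 7403 bp. By chromosome, the density ranged from 21.2 per Mb of desert on chromosome 19 upward, with a median of 26.0 and the highest value on chromosome 13.

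The next question was which lists shared the regions. SOX2-ON had a peak at 9197 gene desert regions, SOX2-OFF at 8959 and CEpiLC at 8846. Only 18.2% had a peak in all 3 lists (95% Wilson interval 17.6 to 18.8%, counting error only), against 31.2% of all merged regions and 29.1% of intergenic regions 5 to 100 kb from a coding start. Intronic regions over 5 kb from a start were close to the deserts, at 18.9% (18.5 to 19.3%). The class that gained most was SOX2-ON only, with 3982 regions or 23.3% (22.7 to 24.0%) against 16.4% of all merged regions. SOX2-OFF only took 15.7% (15.2 to 16.3%) against 13.4%, and CEpiLC only, with 3593 regions (20.4 to 21.7%), was close to its share of all merged regions (19.8 to 20.3%). Regions of SOX2-ON and SOX2-OFF without CEpiLC made up 9.18% (8.76 to 9.62%) against 6.47%. Regions of SOX2-OFF and CEpiLC took 9.40% against 8.66%, and those of SOX2-ON and CEpiLC 3.18% against 3.88%. Intervals come from counts of regions of 1 library per group, and regions are not replicates. The peak threshold moved these shares: with −log10 q of at least 5, 5290 regions remained, 40.7% of them in SOX2-ON only and 2.19% in CEpiLC only, against 23.1% and 1.90% of all merged regions at that threshold.

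**Figure D2:**
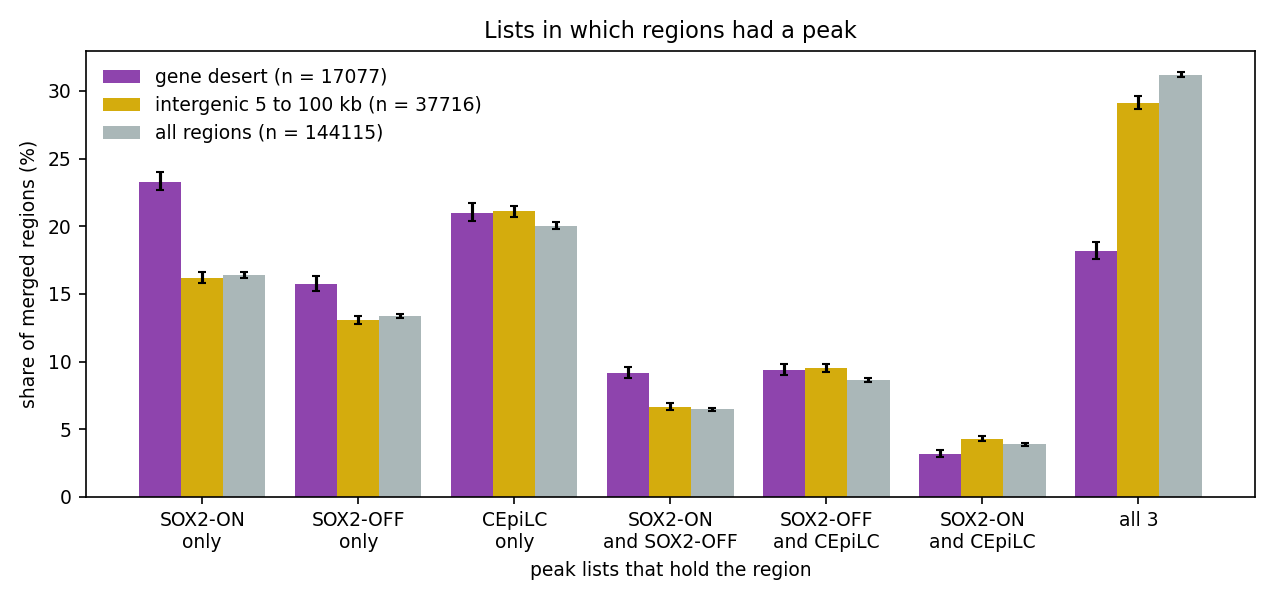
Share of merged regions (%) by the lists in which they had a peak, for gene desert regions, intergenic regions 5 to 100 kb from a coding start and all merged regions; bars are shares and whiskers 95% Wilson intervals. Gene desert regions were in SOX2-ON only at 23.3% against 16.4% of all regions, and in all 3 lists at 18.2% against 31.2%.

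These shares moved further with distance inside the deserts. From 100 to 200 kb to beyond 1000 kb, the SOX2-ON only share went from 21.6% to 25.7% and the SOX2-ON and SOX2-OFF share from 7.71% to 13.0%, while the share in all 3 lists went from 20.6% to 14.2%. CEpiLC only stayed between 20.3% and 21.9%. Chromosomes also differed. SOX2-ON only ranged from 20.1% on chromosome 17 to 32.2% on chromosome 19, and SOX2-OFF only from 10.9% on chromosome 4 to 21.9% on chromosome 14, with 21.1% on chromosome 3. Copy number was not measured here, and its part in the differences between chromosomes was not tested.

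Taking lists in pairs, 33.6% of gene desert regions with a peak in SOX2-ON or SOX2-OFF had one in SOX2-ON only of the pair (background over all merged regions 25.3%), and 31.8% in SOX2-OFF only of the pair (background 27.5%). Against CEpiLC, 38.6% were in SOX2-ON without CEpiLC (background 26.4%) and 36.1% in CEpiLC without SOX2-ON (background 33.1%). Between SOX2-OFF and CEpiLC, the shares were 32.4% without CEpiLC (background 23.7%) and 31.6% without SOX2-OFF (background 28.6%). Each share was above its background, and the excess was larger for regions absent from CEpiLC than for the converse. Intronic regions were above the deserts in 3 of the 6 comparisons, at 34.9% for SOX2-OFF without SOX2-ON, 40.4% for CEpiLC without SOX2-ON and 34.9% for CEpiLC without SOX2-OFF. The 3 pairs share libraries and are not independent.

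Strong peaks gave a sharper contrast. A region was called strong in a list when its best peak was among the 20000 with the highest −log10 p. Of 1489 gene desert regions strong in SOX2-ON, 28.3% had no peak in SOX2-OFF (26.1 to 30.7%; background over all strong SOX2-ON regions 8.55%), and 45.5% had none in CEpiLC (43.0 to 48.0%; background 12.4%). Intergenic regions 5 to 100 kb from a start gave 13.3% and 20.2%, intronic regions over 5 kb from a start 25.4% and 34.1%, and coding promoters 0.280% and 0.474%. The share without SOX2-OFF was thus near that of intronic regions, whose interval was 23.6 to 27.3%. Of 1137 gene desert regions strong in SOX2-OFF, 11.3% had no peak in SOX2-ON (9.63 to 13.3%; background 2.81%) and 12.9% had none in CEpiLC (11.1 to 15.0%; background 1.81%). Of 933 strong in CEpiLC, 13.2% had no peak in SOX2-ON (11.2 to 15.5%; background 2.93%) and 3.22% had none in SOX2-OFF (2.26 to 4.55%; background 1.11%). Strong regions of a single list were 377 for SOX2-ON (25.3%, against 7.35% of all strong SOX2-ON regions), 13 for SOX2-OFF (1.14% against 0.215%) and 15 for CEpiLC (1.61% against 0.591%). Among the strongest 5000 peaks only 39 gene desert regions remained in SOX2-ON, of which 7.69% lacked SOX2-OFF (2.65 to 20.3%, all regions 0.100%) and 15.4% lacked CEpiLC (7.25 to 29.7%, all regions 0.140%).

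Only 260 gene desert regions had a peak among the first 10000 of SOX2-ON, so regions were also compared at matched rank. Among peaks ranked 10001 to 20000 in SOX2-ON, 31.2% of 1229 gene desert regions had no SOX2-OFF peak against 13.3% of 8698 other regions. The shares with no CEpiLC peak were 48.7% against 18.4%. The other regions include coding promoters. Intergenic regions 5 to 100 kb from a start gave 15.3% and 22.6% in these ranks, and intronic regions were not compared by rank. In the same ranks of SOX2-OFF, 12.4% of gene desert regions against 4.54% of others had no SOX2-ON peak, and 14.5% against 2.34% had no CEpiLC peak. In CEpiLC these ranks gave 15.5% against 4.85% without SOX2-ON and 3.70% against 1.97% without SOX2-OFF. Gene desert regions were the more often missing in every bin of every ordered pair down to rank 90000.

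**Figure D3:**
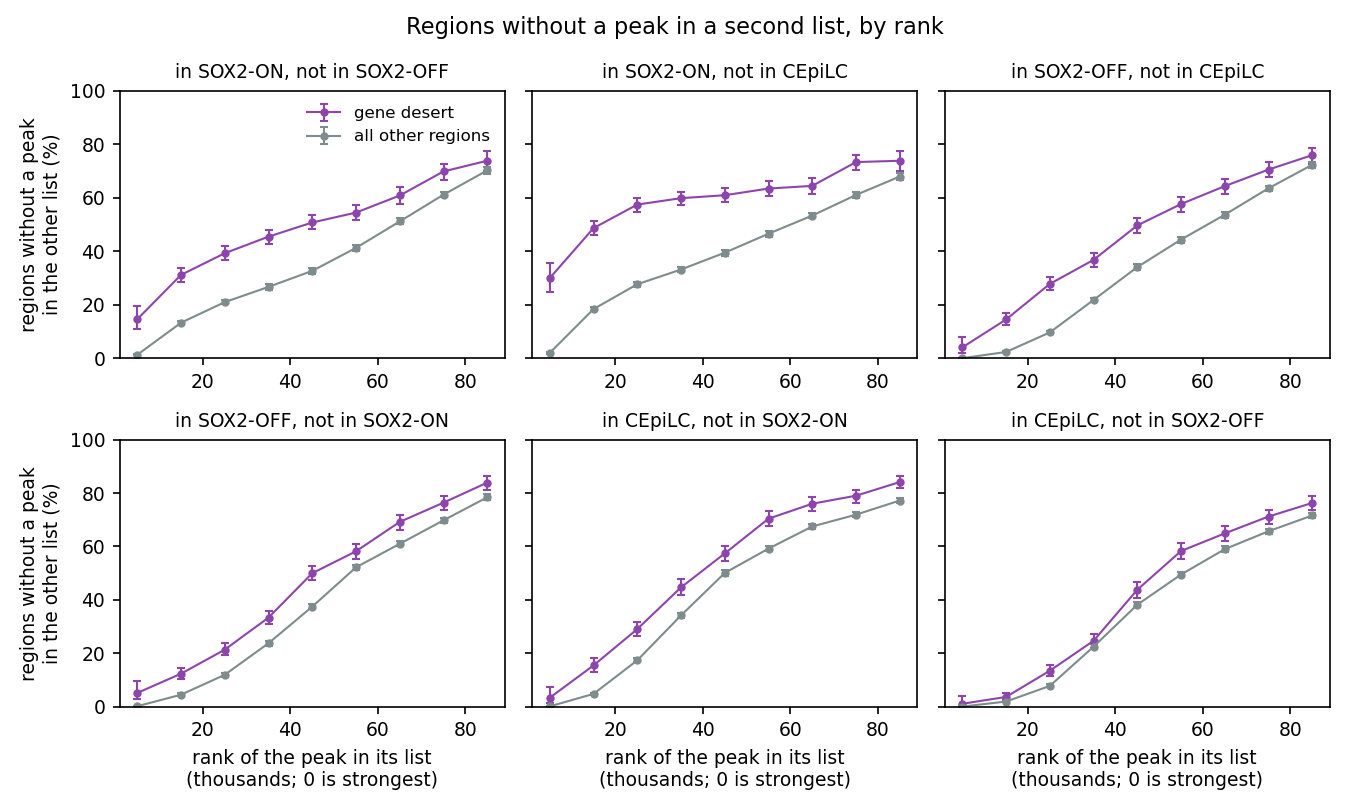
Share of regions (%) with no peak in a second list, by the rank of the region's best peak in the first list in bins of 10000 ranks, for gene desert regions and all other merged regions; whiskers are 95% Wilson intervals and each panel is 1 ordered pair of lists. The gene desert points lie above the others in each panel, with the widest gap for SOX2-ON peaks absent from CEpiLC (48.7% against 18.4% at ranks 10001 to 20000).

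The 3104 gene desert regions with peaks in all 3 lists also differed in rank. Each was ranked by −log10 p among the 44977 regions of all 3 lists, and a shift was called when 2 percentile ranks differed by over 25 points. Between SOX2-ON and SOX2-OFF, 355 regions (11.4%, background 6.07%) ranked higher in SOX2-ON and 306 (9.86%, background 5.14%) ranked higher in SOX2-OFF. Between SOX2-ON and CEpiLC, 15.9% ranked higher in SOX2-ON (background 8.40%) and 11.6% higher in CEpiLC (background 7.13%). Between SOX2-OFF and CEpiLC, 10.2% ranked higher in SOX2-OFF (background 4.75%) and 6.54% higher in CEpiLC (background 4.21%). Intronic regions gave shares near those of the deserts between SOX2-ON and SOX2-OFF, 9.67% and 8.15%. With ranks by fold enrichment the order of the 2 directions turned, to 11.2% higher in SOX2-ON and 12.1% higher in SOX2-OFF. The largest shift upward in SOX2-ON was near Lrig3, a leucine-rich repeat membrane protein gene, where SOX2-ON stood at percentile rank 75.7, SOX2-OFF at 1.73 and CEpiLC at 44.9, and the central window held a SOX motif. Regions near Tmem132b, Krr1, Cep170 and Rorb followed, at 75.8 to 82.0 in SOX2-ON and 3.58 to 10.7 in SOX2-OFF. The largest shift the other way was near Psmg1, where SOX2-ON stood at 2.82, SOX2-OFF at 80.6 and CEpiLC at 79.8, in the interval beside the transcription factor gene Ets2. The next 4, near Adam6a, B3galt2, Htr2a and Lrfn5, had 76.9% to 89.3% of their bases soft-masked, the mark of repeats in the reference.

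The 5 strongest gene desert regions of each list had peaks in all 3. The first in every list was a 290 bp region 109533 bp from Gm8797 (chr3:5860339-5860628), at 28.9-fold enrichment in SOX2-ON, 22.9-fold in SOX2-OFF and 26.6-fold in CEpiLC, and the letters of its centre are those of the large-subunit ribosomal RNA as known from general background, with no ribosomal reference used here.
Gm8797: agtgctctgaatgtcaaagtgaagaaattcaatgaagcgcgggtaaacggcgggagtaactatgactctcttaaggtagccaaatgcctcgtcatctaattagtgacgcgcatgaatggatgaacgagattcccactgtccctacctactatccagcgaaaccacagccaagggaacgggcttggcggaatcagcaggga
The second in SOX2-ON and SOX2-OFF, 1918546 bp from Ptprd (a receptor tyrosine phosphatase gene) and 96.0% soft-masked, reached 13.3-fold and 11.3-fold there but 2.35-fold in CEpiLC, the 83.1st percentile of that list. Regions near Rnf219, Gm21863 and Ogfrl1 were at the 98.7th percentile or higher in every list. None of the 17077 regions shared a 25-base word with the mitochondrial genome.

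Single-list regions differed in strength between lists. The highest −log10 p of a gene desert region found in 1 list alone was 185 in SOX2-ON (947968 bp from Fam98a, 6.86-fold, 95.8th percentile), 30.7 in SOX2-OFF (181561 bp from Rab10, 3.03-fold, 85.8th percentile) and 22.1 in CEpiLC (125145 bp from 4933412E24Rik, 3.10-fold, 91.6th percentile). After Fam98a, SOX2-ON had a region 568545 bp from Msl3l2 (94.6th percentile) and one 1899345 bp from Celf4 (92.9th percentile) with a SOX motif. After 4933412E24Rik, CEpiLC had regions 687160 bp from Tmpo (88.8th percentile), which encodes a nuclear lamina protein, and 246146 bp from Irx1 (87.6th percentile), a homeobox gene. After Rab10, SOX2-OFF had regions near Npffr2 (83.5th percentile) and Ptger3 (82.0th percentile). These SOX2-OFF regions were 67.1% to 83.5% soft-masked and each pair shared between 49 and 110 of the possible 25-base words, so they hold copies of the same sequence. The longest run common to all 3 was 52 bases, at chr12:3127923-3127974 on the plus strand and at chr5:89639468-89639519 and chr3:157735337-157735388 on the minus strand.
SOX2-OFF run: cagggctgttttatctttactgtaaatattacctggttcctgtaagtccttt
No pair of the 3 strongest SOX2-ON only regions, or of the 3 strongest CEpiLC only regions, shared a 25-base word. The Fam98a region was still 79.3% soft-masked and holds the second word, which occurred 191 times on the 16 autosomes. The regions near Msl3l2 and Celf4 were 23.3% and 2.97% soft-masked.

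Regions of 2 lists were ordered by the lower of their percentiles. The first in SOX2-ON and SOX2-OFF lay 163368 bp from Ncam2 (a neural cell adhesion gene), at the 93.8th and 95.4th percentiles with no CEpiLC peak, and was 88.4% soft-masked. The strongest in SOX2-OFF and CEpiLC lay 399383 bp from Gm826, at the 91.5th and 91.2nd percentiles with no SOX2-ON peak, followed by regions near Cnbd1 and Lcorl. The strongest in SOX2-ON and CEpiLC lay 481613 bp from Tenm4, at the 86.5th and 80.0th percentiles.

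Repeat content set 1 class apart. The median soft-masked share of a gene desert region was 52.4% in the SOX2-ON and SOX2-OFF class and between 12.3% and 16.1% in the other 6. Of its 1568 regions, 801 (51.1%, interval 48.6 to 53.6%) were over 50% soft-masked, against 22.3% of all gene desert regions, 9.98% of all merged regions and 25.3% of intergenic regions of the same class. Among regions under 50% soft-masked, this class made up 5.78% of gene desert regions and 5.65% of all merged regions, so its excess was not seen there. Over all 1568 regions of the class, the median CpG observed over expected was 0.291, against 0.162 for all gene desert regions. Over all classes, gene desert regions were narrower than merged regions in general (median 482 bp against 615 bp) and lower in GC content (47.9% against 49.3% in intergenic regions).

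The first word was in 248 of the 1568 regions of that class (15.8%, interval 14.1 to 17.7%). It was found in 59 of 3982 SOX2-ON only regions (1.48%), 23 of 2681 SOX2-OFF only regions (0.858%) and 58 of the 3104 regions of all 3 lists (1.87%). It was in 0 of 3593 CEpiLC only regions, which allows a share of up to 0.0835%, and in 0 of 1606 SOX2-OFF and CEpiLC regions, which allows up to 0.187%. The same word occurred 5092 times on the 16 autosomes, 2457 of them (48.3%) in sequence that meets the desert rule. Of these 2457 copies, 27.2% lay under a SOX2-ON peak (25.5 to 29.0%), 23.8% under a SOX2-OFF peak (22.2 to 25.5%) and 2.44% under a CEpiLC peak (1.90 to 3.13%). The 2635 copies elsewhere, which had no part in the choice of the word, gave 29.8%, 24.1% and 3.04%. Copies of a repeat share most of their sequence, and reads from them may be placed ambiguously or discarded. The libraries differed in smallest peak width, and the part of fragment length in these shares was not tested.

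The second word was the most frequent among 777 gene desert regions shifted toward SOX2-ON, defined as strong in SOX2-ON with no SOX2-OFF peak or over 25 points higher in SOX2-ON. It was in only 21 of these 777 regions (2.70%). Over all gene desert regions, 50 held it, shifted or not. Of these 50, 25 were in all 3 lists, 16 in SOX2-ON only and 9 in SOX2-ON and SOX2-OFF, with 0 in each of the other classes. All 50 had a SOX2-ON peak, at a median percentile of 83.1, whereas 34 had a SOX2-OFF peak (median 68.8) and 25 a CEpiLC peak (median 61.0). Of 68 copies in desert sequence, 72.1% lay under a SOX2-ON peak (60.4 to 81.3%), 48.5% under a SOX2-OFF peak (37.1 to 60.2%) and 20.6% under a CEpiLC peak (12.7 to 31.6%). The 123 copies elsewhere gave 61.0% (52.1 to 69.1%), 38.2% (30.1 to 47.0%) and 16.3% (10.8 to 23.8%). Among the named regions with this word, the B3galt2 region went the other way, with percentile ranks of 10.9 in SOX2-ON and 83.6 in SOX2-OFF. How many of the 50 regions ranked higher in SOX2-OFF was not counted.

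The last word was the most frequent among 435 regions shifted toward SOX2-OFF by the converse rule. It was in only 14 of these 435 regions (3.22%). Over all gene desert regions, 21 held it, shifted or not. Of these 21, 13 were in all 3 lists, 7 in SOX2-OFF and CEpiLC and 1 in SOX2-OFF only. Their median percentile was 85.7 in SOX2-OFF and 79.3 in CEpiLC, and 54.3 in the 13 with a SOX2-ON peak. Of 24 copies in desert sequence, 12 lay under a SOX2-ON peak (31.4 to 68.6%), 21 under a SOX2-OFF peak (69.0 to 95.7%) and 18 under a CEpiLC peak (55.1 to 88.0%), and the 39 copies elsewhere gave 38.5% (24.9 to 54.1%), 84.6% (70.3 to 92.8%) and 59.0% (43.4 to 72.9%). The order of the lists in desert sequence was part of how the second and last words were chosen and is a description. The same holds for the first word, which was chosen among desert regions with no CEpiLC peak. For each word, the copies elsewhere were not used in the choice.

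**Figure D4:**
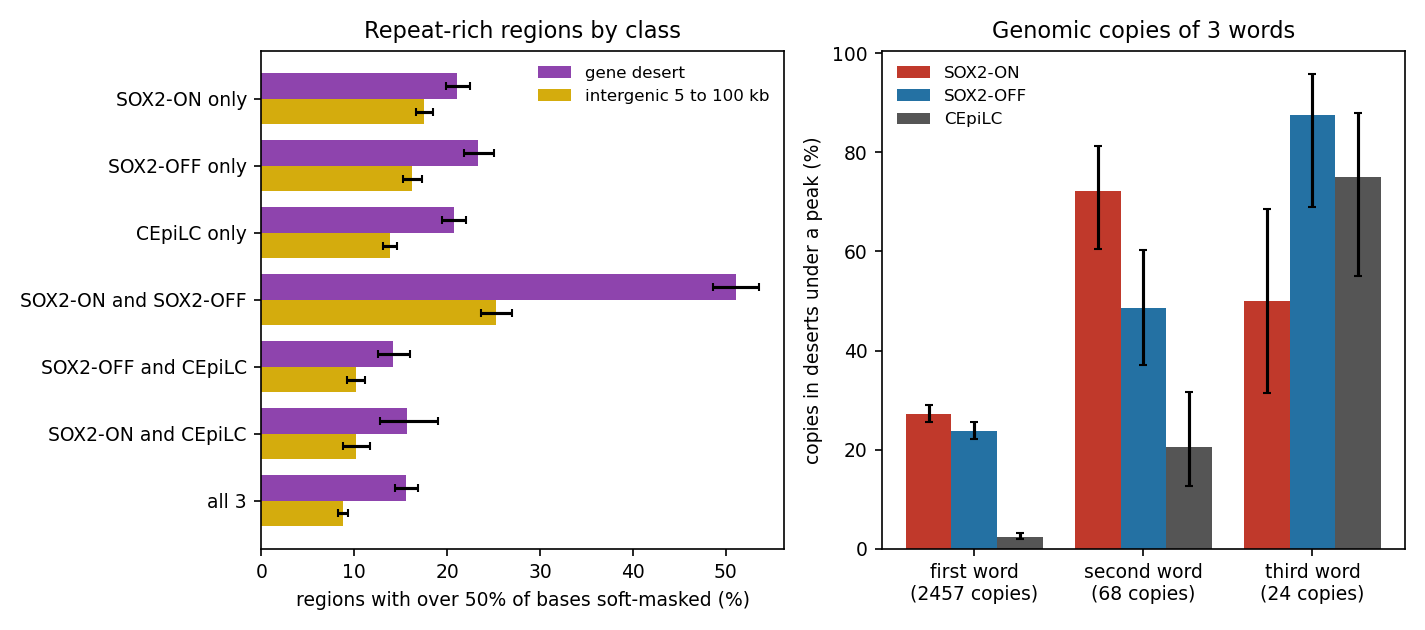
Left, share of regions (%) with over 50% of bases soft-masked by class, for gene desert regions and intergenic regions 5 to 100 kb from a coding start. Right, share (%) of the genomic copies of the 3 words in desert sequence that lay under a peak of each list. Whiskers are 95% Wilson intervals; the SOX2-ON and SOX2-OFF class stands at 51.1% on the left, and CEpiLC peaks cover 2.44% of the first word's copies on the right. The words were chosen by the lists in which desert regions had peaks, so the right panel is a description.

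Motif matches in the central 200 bp also separated the classes. SOX motifs (CATTGTT or CTTTGTT, either strand) were in 19.7% of SOX2-ON only gene desert regions (786 of 3982), against 9.06% in SOX2-OFF only, 7.35% in CEpiLC only, 10.1% in all 3 lists and 8.57% of all merged regions. Intergenic SOX2-ON only regions gave 14.7%, or 16.9% when weighted to the GC content of the desert regions. Among regions strong in SOX2-ON, SOX motifs were in 26.3% of the 422 without a SOX2-OFF peak (22.3 to 30.7%) and in 12.4% of the 1067 with one. The matching intergenic regions gave 23.6% (19.8 to 27.9%) and 9.47%, so that the share without a SOX2-OFF peak did not differ from the desert share beyond its interval. In the deserts, OCT-SOX matches were in 5.21% of the strong SOX2-ON regions without a SOX2-OFF peak and 3.00% of those with one. The matching intergenic regions gave 3.86% (2.39 to 6.17%) and 0.884%. In windows under 50% soft-masked, the shares without a SOX2-OFF peak were 2.32% (1.18 to 4.51%) in deserts and 2.40% in intergenic regions. GATA motifs (AGATAAG) were in 6.43% of SOX2-ON only regions against 3.88% of all gene desert regions.

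Other motifs were compared in the same way. TCF/LEF motifs (CTTTGAT or CTTTGAA), which bind the nuclear effectors of WNT signalling, were in 11.6% of SOX2-OFF only regions (10.4 to 12.8%), 10.6% of SOX2-ON only regions (9.70 to 11.6%) and 10.3% of regions in all 3 lists (11.5% at the GC content of the SOX2-OFF only regions), whose intervals overlap. SOX2-OFF and CEpiLC regions gave 12.1% (10.6 to 13.8%) and CEpiLC only regions 6.96% (6.17 to 7.84%). T-box motifs (AGGTGTGA) were in 1.83% of SOX2-OFF only regions (1.39 to 2.41%) against 0.904% of SOX2-ON only regions (0.654 to 1.25%). Intergenic regions of these classes gave 1.94% and 1.36%. CDX motifs (GCAATAAA, GTAATAAA, GCCATAAA or GTCATAAA) were in 3.42% of CEpiLC only regions (2.88 to 4.07%) against 1.71% in SOX2-ON only (1.35 to 2.16%). Intergenic regions of these classes gave 2.32% and 1.88%. Matches to the CTCF consensus, with up to 1 mismatch of 14 letters, were in 5.06% of regions in all 3 lists and in 0 of the 422 strong SOX2-ON regions without a SOX2-OFF peak, which allows up to 0.711%. The matching intergenic regions also had 0, of 415. FOX (TGTTTAC), FOXH1 (AATCCACA), KLF (GGGTGTGG or GGGCGTGG), ESRRB (TCAAGGTCA), TEAD (CATTCCA) and OCT (ATGCAAAT) motifs were each in 0.410% to 3.64% of all gene desert regions, and AP-1 motifs (TGAGTCA or TGACTCA) in 5.00%. Over all merged regions, the shares were 3.02% for GATA, 7.65% for TCF/LEF, 1.16% for T-box, 1.85% for CDX, 2.69% for CTCF, 2.65% for FOX, 0.751% for FOXH1, 3.43% for KLF, 0.426% for ESRRB, 3.29% for TEAD, 1.32% for OCT, 0.666% for OCT-SOX and 4.43% for AP-1. A match is a description of letters and not evidence of binding.

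The gene desert regions fell into 1290 intervals between neighbouring coding genes, with a median of 9 per interval, and 303 intervals with at least 20 regions held 59.4% of them. The fullest lay between Adam6a and Zfp386 (chr12:113546466-116047723), the immunoglobulin heavy chain locus, whose V segments are not protein-coding genes in the annotation used. It held 204 regions, 102 of them in all 3 lists. Next came the intervals between Pcdh20 and Pcdh9 with 89 regions, Adgrl2 and Adgrl4 (adhesion G protein-coupled receptor genes) with 84, Kcnt2 and Cdc73 with 81, and Kif2a and Ndufaf2 with 77. The last was dense, at 78.5 regions per Mb.

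The next intervals were picked from the 1290 for holding among the most regions in SOX2-ON only, SOX2-OFF only or CEpiLC only. Their lean toward a class was therefore part of the choice and is a description. Over all gene desert regions, SOX2-ON only made up 23.3% and SOX2-OFF only 15.7%. The interval for CEpiLC only was 20.4 to 21.7%. Between Kcnh7 and Fign, 57 of 65 regions had a SOX2-OFF peak, 38 a SOX2-ON peak and 11 a CEpiLC peak, and the interval had 23 regions in SOX2-OFF only, 23 in SOX2-ON and SOX2-OFF and 0 in CEpiLC only. Between Cd83 and Jarid2, a gene for a Polycomb cofactor, 26 of 43 regions were in SOX2-ON only, as were 25 of 56 between Hace1 and Grik2 and 28 of 76 between Cntnap5b and Cdh20. CEpiLC only regions were most numerous between Sel1l and Flrt2, at 29 of 73. Local copy number was not measured, and its part in these intervals was not tested. Of all gene desert regions, 85.7% overlapped no annotated gene of any kind, 9.42% overlapped a lincRNA or antisense gene body away from its start, 2.18% a pseudogene and 0.123% a miRNA gene.

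Fixed lists of neighbours were counted by nearest coding start, beside 1937 of 16993 coding genes that were the nearest gene of at least 1 region. Developmental genes known to lie beside deserts had 303 regions at 16 of 19 genes on these autosomes, with class shares of 20.5% SOX2-ON only, 18.2% SOX2-OFF only and 18.8% in all 3 lists. Myc, the proto-oncogene, had 50 regions, of which 10 were in SOX2-ON only, 12 in SOX2-OFF only, 9 in CEpiLC only and 5 in all 3 lists. Near Id4, an inhibitor of bHLH factors, 13 of 15 regions had a SOX2-ON peak and 10 were in SOX2-ON only, with 0 in SOX2-OFF only. Near Nr2f1, an orphan nuclear receptor gene, 24 of 29 regions had a SOX2-OFF peak and 13 were in SOX2-OFF only, with 0 in SOX2-ON only. Near Nr2f2, its paralogue, 10 of 27 were in SOX2-ON only and 2 in SOX2-OFF only. Sox11, which encodes another SOX factor, had 8 of 17 regions in all 3 lists. Further genes of the list with regions included Bmp2 (23), Bmp4 (1), Dach1 (21), Gli3 (11), Irx1 (18), Lef1 (12), Sall3 (24), Tcf7l2 (3) and Tshz1 (15).

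Naive pluripotency genes had 78 regions at 5 of 7 genes, of which 25 were in SOX2-ON only (32.1%, against 23.3% of all gene desert regions) and 2 in SOX2-OFF and CEpiLC. Nr5a2, an orphan nuclear receptor of naive pluripotency, had 27, with 11 in SOX2-ON only and 4 in SOX2-OFF only. Klf5, a Krüppel-like factor, had 16, of which SOX2-ON had 10, SOX2-OFF 11 and CEpiLC 2. Klf4 had 12, with 5 in SOX2-ON only and 3 in CEpiLC only, and Tbx3 had 9, with 4 and 1. Tfcp2l1 went the other way, with 1 of its 14 regions in SOX2-ON only and 5 in CEpiLC only. Anterior epiblast and neural genes had 37 regions. Otx2, an anterior homeobox gene, had 2 of these, and both were in SOX2-ON only and strong there. Pou3f2 had 18, with 4 in SOX2-ON only and 7 in CEpiLC only, and Pax3 had 11, with 3 and 1. Six3 had 6, of which 4 were in all 3 lists. Early streak and mesendoderm genes had 54 regions, of which 27 lay near Foxa2, a pioneer factor of endoderm, with peaks at 19 in SOX2-OFF, 15 in SOX2-ON and 13 in CEpiLC. Eomes had 9, Gata6 had 7, Sox17 had 6 and Gsc had 5. Caudal epiblast and paraxial mesoderm genes had 0 regions at 8 genes. These counts are small, nearest does not mean regulated, and no test was made between lists of genes.

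The interval downstream of Sox2, up to Atp11b, held 31 regions over 1.10 Mb, of which 11 were in all 3 lists, 7 in SOX2-ON only, 1 in SOX2-OFF only and 4 in CEpiLC only. The upstream interval, from Dnajc19, held 8, of which 0 were in all 3 lists. A pair of downstream regions at about 106 and 111 kb, in the stretch known for the distal Sox2 enhancer of embryonic stem cells, had peaks in every list, including SOX2-OFF and SOX2-ON, in which the endogenous gene was disrupted. For SOX2-ON, SOX2-OFF and CEpiLC in turn, the first stood at percentiles 68.2, 68.7 and 67.8, and the second, shown above, at 74.1, 68.8 and 74.7. The region at 145 kb stood at 76.5, 81.6 and 88.1. The region at 376750 bp stood at 82.1, 69.7 and 77.6, so that SOX2-ON was lowest at the former and highest at the latter. A region at 299 kb with an OCT motif (ATGCAAAT) was at 43.2 in SOX2-OFF and 75.01 in CEpiLC with no SOX2-ON peak. A region at 481 kb held the first word and was at 77.8 in SOX2-ON and 61.6 in SOX2-OFF with no CEpiLC peak.

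**Figure D5:**
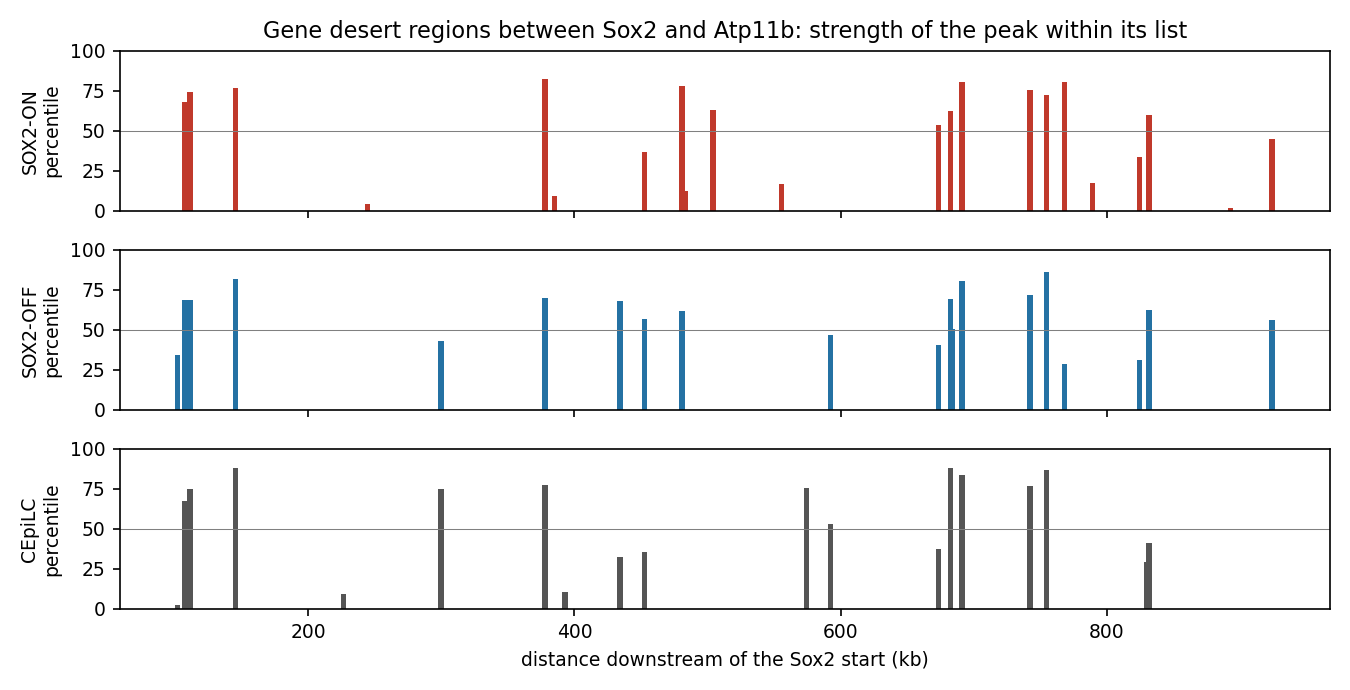
Percentile of the strongest peak within its list (vertical axis, 0 to 100) for gene desert regions between Sox2 and Atp11b, by distance downstream of the Sox2 start in kb, with 1 row per library; narrow regions are drawn wider than they are. Regions near 106, 111 and 145 kb have bars in all 3 rows, and the region at 481 kb has none in CEpiLC.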

How the data were processed

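ATAC-seq libraries of 3 groups with 1 sample each were analysed. Per the labels and the study's methods, reads were mapped to mm10 and broad peaks were called for each library with MACS2 (version not given in the sources used here) within nf-core/atacseq 1.0.0. The deposited peak lists give a fold enrichment (a ratio of signal to background), a −log10 p and −log10 q value and a display score per peak, all made by the authors. Read counts and total depth were not in the sources used here. Peaks were merged with bedtools 2.31.1, annotated with GENCODE M21, and analysed in Python 3.11.15. A list held a region when any of its peaks overlapped it. Percentile ranks used −log10 p within a list on the 16 autosomes. Soft-masked bases and sequences came from the RefSeq GRCm38 reference. Motif letters were matched on either strand of the 200 bp at a region's centre. Simple repeats, left out of word counts, held fewer than 10 different 3-base words. Wilson 95% intervals cover counting error only, since they count regions of 1 library per group and regions are not replicates. Reads amplified by PCR are not independent molecules either. The upper limit of a count of 0 was 3 of the total. With 1 sample per group no test was possible and no p-value was computed. Functions were tested on simulated peaks and sequences.

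The regions and gene lists were chosen with earlier results of these data known. Named regions were the 5 strongest per list, the 3 strongest per single list and per pair of lists, the 5 largest rank shifts in each direction, the farthest and the limiting regions, the intervals with most regions, and genes of the lists that were nearest to a region. Regions downstream of Sox2 were all considered. The words, the run shared by SOX2-OFF regions and the motifs and intervals singled out were chosen after values were seen. Chromosome 18 sequence is not shown. Values of 1 gene of the lists are not reported here. Alternatives covered the peak threshold, merging, distance, annotation, presence, repeats, the strength limit, the strength measure, the rank limit and the motif window.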

Additional observations from a re-analysis of the deposited data

How the results depend on the processing

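No paired analysis was possible because no group held a second sample, and for the same reason no replicate was left out. Of 110 alternative values over 26 results, 42 stayed within the counting interval or 1.5 times the main count and 68 moved. All values below are shares of gene desert regions unless named otherwise, and a strict peak threshold keeps fewer peaks of CEpiLC, whose −log10 p values were lower. The cause of the other moves was not tested.

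With −log10 q of at least 2, 10620 regions remained, with 29.6% in SOX2-ON only, 10.6% in CEpiLC only, 13.1% in SOX2-ON and SOX2-OFF and 19.8% in all 3 lists. With at least 5, 5290 remained, with 40.7%, 2.19%, 18.7% and 14.3%, and 18.1% in SOX2-OFF only, and the density was 8.69 per Mb in deserts and 29.7 per Mb at 5 to 20 kb. Merging peaks up to 1 kb apart gave 22.5% SOX2-ON only, 15.1% SOX2-OFF only, 19.9% CEpiLC only, 9.72% SOX2-ON and SOX2-OFF and 19.2% all 3. Beyond 200 kb, 9802 regions gave 24.6% SOX2-ON only, 20.4% CEpiLC only, 10.3% SOX2-ON and SOX2-OFF and 16.3% all 3, and beyond 500 kb, 3030 regions gave 25.9%, 12.5% and 14.2% for the first, the third and the last of these. Regions clear of every annotated gene gave 17.3% all 3. Under 50% soft-masked, SOX2-ON and SOX2-OFF was 5.78% and all 3 was 19.7%. Of 2 alternatives chosen after seeing the data, leaving out regions with a common 25-base word gave 16.4% SOX2-OFF only, 23.4% CEpiLC only, 5.35% SOX2-ON and SOX2-OFF and 17.5% all 3, and the strongest 80000 peaks of each list gave 25.2% SOX2-ON only, 17.7% CEpiLC only, 10.3% SOX2-ON and SOX2-OFF and 18.9% all 3.

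Strong regions missing from another list depended on the limit. With the strongest 5000 peaks, 7.69% of SOX2-ON regions lacked SOX2-OFF and 15.4% lacked CEpiLC, 0% of SOX2-OFF regions lacked SOX2-ON and 3.12% lacked CEpiLC, and 0% of CEpiLC regions lacked SOX2-ON and 0% lacked SOX2-OFF. With the strongest 50000 these were 40.8%, 55.8%, 29.7%, 32.5%, 37.1% and 22.2%. By fold enrichment, 48.3% of SOX2-ON and 16.1% of SOX2-OFF regions lacked CEpiLC, and 16.8% and 5.32% of CEpiLC regions lacked SOX2-ON and SOX2-OFF. Rank shifts toward SOX2-OFF were 12.1% by fold enrichment, and with a limit of 40 points shifts were 5.12% toward SOX2-ON and 3.41% toward SOX2-OFF.

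Motif shares rose over whole regions, to 35.2% (SOX, SOX2-ON only), 60.4% (SOX) and 9.24% (OCT-SOX) in strong SOX2-ON regions without SOX2-OFF, 21.9% (TCF/LEF, SOX2-OFF only) and 18.8% (CTCF, all 3). The matching intergenic regions gave 28.1%, 55.9%, 10.6%, 20.6% and 26.0% over whole regions, in the same order. In windows under 50% soft-masked the desert shares were 21.9% (SOX, SOX2-ON only), 2.32% (OCT-SOX), 12.9% (TCF/LEF) and 6.02% (CTCF). CTCF was 6.57% at the centre of the strongest peak, and SOX was 16.9% in intergenic SOX2-ON only regions weighted to the GC content of the deserts.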

Other observations

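Gene desert regions by the same rule on the chromosomes not used above had other class shares. Chromosome 6 had 5335, of which 24.8% were in SOX2-ON only, 34.9% in SOX2-OFF only and 0.900% in CEpiLC only. Chromosome 8 had 5110, with 30.8%, 33.7% and 0.841%. Chromosome 11 had 4098, with 2.64%, 0.976% and 84.9%. The X chromosome had 333, with 45.6%, 11.1% and 2.40%. Shares over all merged regions of these chromosomes are not given here, so these values cannot be read as particular to gene deserts. Whether they follow a difference between libraries over the whole chromosome was not tested. On the X chromosome, 15 of the 69 regions of the SOX2-ON and SOX2-OFF class held the first word (21.7%), against 15.8% on the 16 autosomes. On chromosomes 6 and 8 that class held it in 39 of 1538 regions (2.54%) and 22 of 1309 regions (1.68%).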
